A study of Homo sapiens with 6 samples.

Results

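The 10 genes described here are the MHC class II genes of KO52 cells together with their master regulator. They are HLA-DRA, HLA-DRB1, HLA-DPA1, HLA-DPB1, HLA-DQA1, HLA-DQB1, HLA-DMA, HLA-DMB, CD74 and CIITA. They were chosen by name and found by matching the gene IDs of the count tables to symbols, which gave 10 of 60612 gene IDs, and all 10 passed the filter on low counts. KO52 is an established acute myeloid leukemia line, labelled CEBPA double mutant, and every library in the study comes from it. RNA was sequenced in 6 libraries, 2 in each of 3 groups. Cells of the dnCEBP group held an inducible lentiviral vector (switched on by doxycycline) for a dominant negative C/EBP peptide, in dnFOS an inducible vector for a dominant negative FOS peptide, and in EV the GFP-expressing empty vector. The peptides pair with several C/EBP or AP-1 family members and keep them off DNA, so neither vector acts on a single gene. Per the study's methods, transduced cells were treated with doxycycline and sorted for GFP before sequencing. How long the cells of these RNA libraries were induced is not stated separately. The comparisons with EV ask what changes when DNA binding of either factor family is blocked, and setting dnFOS against dnCEBP asks in which genes the peptides part.

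MHC class II molecules are pairs of an alpha and a beta chain that show peptides from endocytosed proteins to CD4+ T cells. CD74, the invariant chain, fills their groove until cathepsins cut it down to a short fragment, and the HLA-DM pair then exchanges that fragment for antigen peptides. CIITA does not bind DNA by itself. It docks on the RFX complex, NF-Y and CREB, which sit on the X and Y boxes of class II promoters, and its level is the usual switch for the whole gene set in professional antigen presenting cells and in myeloid blasts.

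CIITA had the largest called difference of the 10 members. The summed level of the 10 overlapped between all groups as scaled counts (CPM, with TMM factors), but not as a share of total counts. CIITA was lower in dnCEBP than in EV and higher in dnFOS than in dnCEBP, while the chains HLA-DRA, HLA-DRB1, HLA-DPA1 and HLA-DPB1 and the invariant chain CD74 were called in none of the 3 comparisons. HLA-DMB was higher in dnFOS than in EV, and HLA-DQB1 higher in dnFOS than in dnCEBP. Both of these calls were near the threshold, as was that of CIITA in dnCEBP against EV (edgeR adjusted p = 0.0404). That call of CIITA was lost with DESeq2 and with library totals alone.

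Promoter sequences are shown for 6 of the 8 members found in a RefSeq promoter table (GRCh38.p14), because CIITA acts through the X and Y boxes of class II promoters. HLA-DQB1, HLA-DPB1 and CD74 had no match to either X box motif searched, which does not say that they lack an X box. The 250 bases before the start were searched on both strands. Capitals mark the matches to CCAAT (Y box, also read as ATTGG), to GCAACNG (the core of the X box), to ACTGATG (the end of the X box, a motif chosen after these sequences were seen), to TGANTCA (AP-1) and to TTGCNNA (C/EBP, also read as TNNGCAA). All are given 5′ to 3′ along the gene.
HLA-DRB1 (chr6:32589888-32590063, minus strand): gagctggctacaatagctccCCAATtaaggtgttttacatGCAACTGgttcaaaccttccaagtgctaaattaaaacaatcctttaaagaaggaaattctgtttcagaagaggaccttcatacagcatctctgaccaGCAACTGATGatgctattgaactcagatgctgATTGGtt
HLA-DMA (chr6:32953140-32953226, minus strand): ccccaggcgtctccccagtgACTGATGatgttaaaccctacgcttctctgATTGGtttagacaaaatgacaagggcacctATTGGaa
HLA-DMB (chr6:32941044-32941132, minus strand): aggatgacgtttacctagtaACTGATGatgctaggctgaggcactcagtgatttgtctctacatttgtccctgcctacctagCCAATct
HLA-DQB1 (chr6:32666715-32666765, minus strand): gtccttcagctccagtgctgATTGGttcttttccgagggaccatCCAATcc
HLA-DPB1 (chr6:33075840-33075921, plus strand): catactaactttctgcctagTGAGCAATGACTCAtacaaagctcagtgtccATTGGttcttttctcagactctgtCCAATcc
CD74 (chr5:150412957-150412983, minus strand): gtgatgagggccctgggcagCCAATgg

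CCAAT was found in 7 of the 9 promoter rows of the members, beside 32.0% of all 35116 promoters of the same length. These were CD74, HLA-DMA, HLA-DMB, HLA-DPB1, HLA-DQA1, HLA-DQB1 and HLA-DRB1. GCAACNG was found in HLA-DPA1 and HLA-DRB1 (9.42% of all promoters) and ACTGATG in HLA-DMA, HLA-DMB and HLA-DRB1 (2.03%). In HLA-DRB1 the matches to GCAACNG and ACTGATG overlap. TGACG, the letters of the X2 box core of CREB sites, not capitalized, was found in HLA-DMB, HLA-DPA1, HLA-DPB1 and HLA-DQB1 (21.2% of all promoters). These matches were not required to lie beside an X box, so they do not locate X2 boxes. Those of HLA-DPB1 at -193 and HLA-DQB1 at -174 from the start lie outside the stretches printed. That of HLA-DMB at -100 lies upstream of its ACTGATG at -84. The letters of the families that the peptides block were found in HLA-DPB1 only among the members' rows. There TGAGCAA (C/EBP, 29% of all promoters) runs straight into TGACTCA (AP-1, 6.57%), at -130 to -117 from the start. HLA-DPB1 had no match to GCAACNG or ACTGATG, and this stretch lies upstream of its Y box match at -99 to -95. In HLA-DRB1 the X box match at -78 to -72 likewise lies upstream of the Y box match at -46 to -42. Whether the HLA-DPB1 stretch is part of an X box was not tested. A match is a description of the letters, and it does not say that a factor was bound. Nor does a missing match to these short motifs say that a box is absent. HLA-DRA and CIITA are named only.

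Against these sequences stands the level of each gene in EV cells. Levels between genes were compared as counts scaled to library size (CPM, with TMM factors) per kilobase of the principal transcript, as mean ± SD over 2 libraries. CD74 was highest at 359.9 ± 29.9, followed by HLA-DRA at 222.9 ± 5.77, HLA-DRB1 at 96.7 ± 5.37 and HLA-DPA1 at 80.6 ± 2.31. HLA-DPB1 at 34.5 ± 0.669, HLA-DMA at 28.9 ± 0.763 and HLA-DQB1 at 21.4 ± 0.765 formed the middle of the order. HLA-DMB at 5.27 ± 0.791, CIITA at 2.07 ± 0.23 and HLA-DQA1 at 1.95 ± 0.0742 were the lowest. The order of neighbours held in all 6 libraries except for CIITA and HLA-DQA1, whose ranges overlapped. The order depended on the length used. CIITA has a principal transcript of 16059 bases with a coding part of 3390, and stood at 9.82 ± 1.09 per coding kilobase, overlapping HLA-DMB. On that scale CD74 (351.1 to 420.9 over the 6 libraries) overlapped HLA-DRA (357.8 to 419.4), HLA-DPA1 lay above HLA-DRB1, and HLA-DQB1 overlapped HLA-DMA. With all exons as length CD74 stood at 110.9 ± 9.21, below HLA-DRA.

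Depth and cell identity bear on all values below. Total counts ran from 9862994 to 27663179, with both dnFOS libraries the shallowest, and the members took between 0.1016% and 0.1164% of each library. Replicate counts varied beyond sampling noise in each group. Nothing in the labels says that replicates are separate cultures, so the p-values measure the spread between these samples. All 9 myeloid blast markers were detected, with a summed level of 1299.8 to 1343.9 CPM in dnCEBP, 1410.1 to 1486.6 in EV and 1284.5 to 1308.3 in dnFOS. Of the cells known for class II, the B cell markers MS4A1 and PAX5 were at 0 in every library, and 7 B cell markers summed to 30.3 to 30.4 CPM in dnCEBP, 31.6 to 34.4 in EV and 30.2 to 31.5 in dnFOS. The dendritic cell markers XCR1, CLEC10A and CLEC4C were also at 0. The 8 dendritic markers summed to 93.1 to 101.8 CPM in dnCEBP, 100.5 to 107.1 in EV and 86.8 to 89.4 in dnFOS, and 7 of the 8 were under 1 CPM, the sum being almost all FCER1A. Of the monocyte markers CD163 was at 0, and the 7 summed to 67.2 to 76.1 CPM in dnCEBP, 79.5 to 82.0 in EV and 54.6 to 63.2 in dnFOS, with both peptide groups below EV. The 6 T cell markers, mostly CD3D, summed to 149.9 to 152.5 CPM in dnCEBP, 118.5 to 125.9 in EV and 92.4 to 107.2 in dnFOS. Their part in the results was not tested. In bulk RNA, fewer cells with a transcript and less transcript per cell cannot be told apart.

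CIITA, the class II transactivator (ENSG00000179583; GRCh38 chromosome 16, 10866222 to 10943021, plus strand), was at 25.1 and 22.6 CPM in dnCEBP, 30.7 and 35.9 in EV, and 37.6 and 41.3 in dnFOS. The dnCEBP libraries were below both EV libraries and the dnFOS libraries above them, with no overlap among the 3 groups. The means were 23.9 ± 1.79 CPM in dnCEBP, 33.3 ± 3.69 in EV and 39.4 ± 2.62 in dnFOS (SD, n = 2). By edgeR's quasi-likelihood test CIITA fell by 0.48 ± 0.12 on the log2 scale in dnCEBP against EV (SE; 95% interval -0.72 to -0.23; Benjamini-Hochberg adjusted p = 0.0404), a 1.39-fold lower level. Of the 15395 genes tested, 1.07% were called in this comparison, and CIITA was the only 1 of the 10 members. This call was lost with DESeq2 (adjusted p = 0.0615) and with library totals alone (0.0517), and the adjusted p ran from 0.0155 to 0.0615 over the alternatives. Without dnCEBP replicate 2 the log2 difference was -0.41 (adjusted p = 0.537), and without EV replicate 2 it was -0.37 (adjusted p = 0.378).

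In dnFOS against EV the log2 fold change of CIITA was 0.24 ± 0.12 (95% interval -0.00 to 0.49), which edgeR did not call (adjusted p = 0.187). In the direct comparison CIITA was higher in dnFOS than in dnCEBP by 0.72 ± 0.12 on the log2 scale (95% interval 0.47 to 0.97; edgeR adjusted p = 0.000115), a 1.65-fold difference. This call held under every alternative and with each library left out, where the log2 difference ran from 0.65 to 0.80. About 23.4% of the exon bases of CIITA are shared with DEXI and 2 other genes, and the use of strand in counting was not given. DEXI, on the opposite strand, had log2 fold changes of -0.12 in dnCEBP, 0.03 in dnFOS and 0.16 in the direct comparison, with edgeR adjusted p of 0.806, 0.912 and 0.55.

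**Figure D1:**
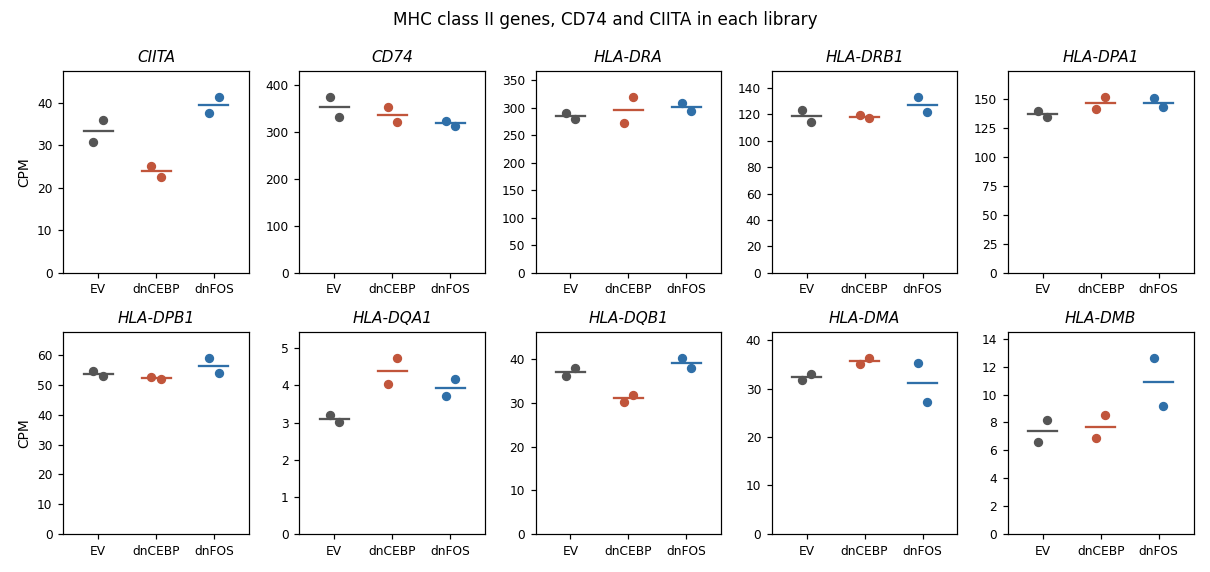
Level of each of the 10 genes in CPM (vertical axes from 0, 1 scale a gene) in the EV, dnCEBP and dnFOS libraries; points are the 2 libraries of a group and lines their means. CIITA shows 3 separate pairs, from 22.6 and 25.1 CPM in dnCEBP to 37.6 and 41.3 in dnFOS, while the pairs of HLA-DRA and HLA-DRB1 lie close together across groups.

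CD74, which guards the groove of new class II molecules (ENSG00000019582; chromosome 5, 150401637 to 150412929, minus strand), was at 352.0 and 320.6 CPM in dnCEBP, 373.8 and 332.3 in EV, and 323.9 and 311.8 in dnFOS. Both dnFOS libraries were below both EV libraries, and the dnCEBP libraries overlapped each of the other groups. Its log2 fold change was -0.07 ± 0.09 in dnCEBP (95% interval -0.25 to 0.11; edgeR adjusted p = 0.821) and -0.15 ± 0.09 in dnFOS (95% interval -0.33 to 0.03; adjusted p = 0.265). With a trend on GC content and length removed the dnFOS value turned to 0.06.

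HLA-DRA and HLA-DRB1, the chains of HLA-DR, were the most abundant class II pair in these cells. HLA-DRA (ENSG00000204287; chromosome 6, 32439842 to 32445046, plus strand) was at 272.6 and 319.5 CPM in dnCEBP, 290.5 and 280.1 in EV, and 308.6 and 294.6 in dnFOS. The dnCEBP libraries lay on either side of all others. Its log2 fold change was 0.05 ± 0.09 in dnCEBP (95% interval -0.13 to 0.23; edgeR adjusted p = 0.874) and 0.08 ± 0.09 in dnFOS (-0.10 to 0.26; adjusted p = 0.602). HLA-DRB1 (ENSG00000196126; chromosome 6, 32578769 to 32589848, minus strand) was at 119.4 and 117.1 CPM in dnCEBP, 123.5 and 114.2 in EV, and 133.2 and 121.6 in dnFOS. The groups overlapped except for dnFOS above dnCEBP. Its log2 fold change was -0.01 ± 0.09 in dnCEBP (95% interval -0.18 to 0.17; edgeR adjusted p = 0.985) and 0.10 ± 0.09 in dnFOS (-0.07 to 0.28; adjusted p = 0.48). With the trend on GC content and length removed, HLA-DRB1 was called in dnFOS against EV at a log2 fold change of 0.29 (adjusted p = 0.00407). Reads of HLA-DRB1 can be split with HLA-DRB5, which shares 2.4% of its windows of 75 bases, and HLA alleles that differ from the reference may be counted in part. Its values are therefore uncertain.

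HLA-DPA1 and HLA-DPB1, the chains of HLA-DP, overlap at their starts on opposite strands. HLA-DPA1 (ENSG00000231389; chromosome 6, 33064569 to 33080775, minus strand) was at 141.4 and 151.9 CPM in dnCEBP, 140.1 and 134.6 in EV, and 150.9 and 143.4 in dnFOS. Both peptide groups lay above EV without overlap, by 0.09 ± 0.08 (95% interval -0.08 to 0.27; edgeR adjusted p = 0.721) in dnCEBP and 0.10 ± 0.08 (-0.07 to 0.27; adjusted p = 0.48) in dnFOS on the log2 scale. HLA-DPB1 (ENSG00000223865; chromosome 6, 33075926 to 33087201, plus strand), whose promoter carries the C/EBP and AP-1 letters shown above, was at 52.6 and 52.0 CPM in dnCEBP, 54.6 and 53.1 in EV, and 59.0 and 54.1 in dnFOS. The dnCEBP libraries were just below EV and the dnFOS libraries overlapped it. The log2 fold change was -0.04 ± 0.10 in dnCEBP (95% interval -0.24 to 0.15; edgeR adjusted p = 0.91) and 0.07 ± 0.10 in dnFOS (-0.13 to 0.27; adjusted p = 0.678).

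The DQ chains were the least even pair. HLA-DQB1 (ENSG00000179344; chromosome 6, 32659467 to 32668383, minus strand) was at 30.3 and 31.9 CPM in dnCEBP, 36.1 and 38.0 in EV, and 40.2 and 37.9 in dnFOS. Both dnCEBP libraries were the lowest of the 6. The log2 fold change against EV was -0.25 ± 0.11 in dnCEBP (95% interval -0.48 to -0.03; edgeR adjusted p = 0.344) and 0.08 ± 0.11 in dnFOS (-0.15 to 0.31; adjusted p = 0.702). Between the peptides HLA-DQB1 was higher in dnFOS by 0.33 ± 0.11 on the log2 scale (95% interval 0.10 to 0.56; edgeR adjusted p = 0.0445), a 1.26-fold difference. The adjusted p ran from 0.00604 to 0.0853 over the alternatives, with the call lost in 4 of 8, and it was lost whichever library was left out, at log2 differences of 0.29 to 0.37. HLA-DQA1 (ENSG00000196735; chromosome 6, 32628179 to 32647062, plus strand) was at 4.03 and 4.73 CPM in dnCEBP, 3.19 and 3.02 in EV, and 3.71 and 4.16 in dnFOS. Its EV libraries were the lowest of the 6, and its counts of 43 to 109 gave the widest intervals of the members. The log2 fold change was 0.49 ± 0.25 in dnCEBP (95% interval -0.01 to 1.00; edgeR adjusted p = 0.435) and 0.33 ± 0.27 in dnFOS (-0.21 to 0.88; adjusted p = 0.452), so that the chains of this pair had opposite signs in dnCEBP with neither called. HLA-DQA1 shares 5.5% of its windows with HLA-DQA2 and HLA-DQB1 1.7% with HLA-DQB2, so both are uncertain in the same way as HLA-DRB1.

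HLA-DMA and HLA-DMB form the peptide exchanger HLA-DM. HLA-DMB (ENSG00000242574; chromosome 6, 32934629 to 32941070, minus strand) was at 6.85 and 8.50 CPM in dnCEBP, 6.59 and 8.15 in EV, and 12.6 and 9.18 in dnFOS. Both dnFOS libraries were above the other 4, with a wide gap between them. HLA-DMB exceeded its EV level in dnFOS by 0.58 ± 0.20 on the log2 scale (95% interval 0.17 to 0.99; edgeR adjusted p = 0.0486), a 1.49-fold level. Here 15.0% of all tested genes were called, so 1 called member of 10 lay near the background. The call was lost with DESeq2 (adjusted p = 0.103), the adjusted p running from 0.0261 to 0.103 over the alternatives. It was lost as well without dnFOS replicate 1 (log2 fold change 0.32, adjusted p = 0.468), without EV replicate 1 (0.43, adjusted p = 0.315) and without EV replicate 2 (0.73, adjusted p = 0.052). In dnCEBP the log2 fold change of HLA-DMB was 0.05 ± 0.20 (95% interval -0.35 to 0.46; edgeR adjusted p = 0.95). HLA-DMA (ENSG00000204257; chromosome 6, 32948613 to 32969094, minus strand) was at 35.2 and 36.3 CPM in dnCEBP, 31.8 and 33.1 in EV, and 35.4 and 27.2 in dnFOS. The dnCEBP libraries were above EV and the dnFOS libraries lay on either side of it. The log2 fold change was 0.14 ± 0.12 in dnCEBP (95% interval -0.11 to 0.38; edgeR adjusted p = 0.706) and -0.04 ± 0.12 in dnFOS (-0.30 to 0.21; adjusted p = 0.862).

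**Figure D2:**
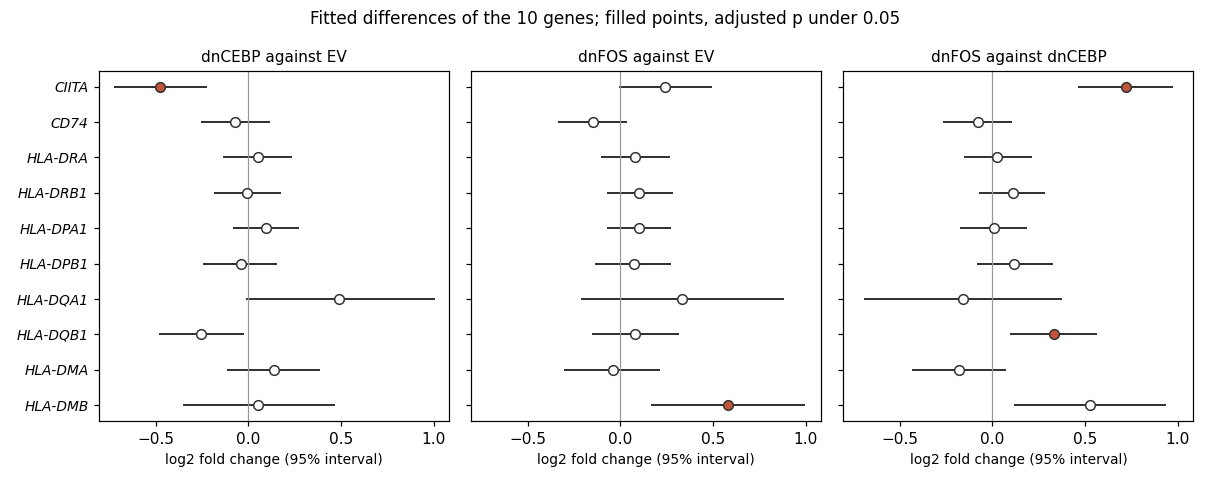
Fitted log2 fold changes (points) with 95% intervals (lines) of the 10 genes in dnCEBP against EV, dnFOS against EV and dnFOS against dnCEBP; filled points have an edgeR adjusted p under 0.05. CIITA is filled at -0.48 and at 0.72, HLA-DMB at 0.58 and HLA-DQB1 at 0.33, and the intervals of the DR and DP chains and CD74 cross 0 in all 3 panels.

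As a set, 1 of 10 members was called in dnCEBP against EV, lower, beside 0.624% of all tested genes called higher and 0.448% called lower. In dnFOS against EV 1 was called, higher, beside 7.24% called higher and 7.76% lower. In dnFOS against dnCEBP 2 of 10 were called, both higher, where 14.7% of tested genes were called in all, 6.83% higher and 7.84% lower. With library totals alone in place of TMM, 73.8% of the calls in dnFOS against EV were higher, against 48.3% with TMM, and 74.6% against 46.6% in the direct comparison. The median log2 fold change of the members was 0.02 in dnCEBP, 0.09 in dnFOS and 0.07 in the direct comparison, and that of all tested genes was 0.00, 0.00 and 0.02. Without overlap between groups were 6 of 10 members in dnCEBP (3 higher, 3 lower; of all genes 42.8%, with 21.9% higher and 20.9% lower), 6 in dnFOS (5 higher, 1 lower; of all genes 56.7%, with 28.3% and 28.4%) and 5 in the direct comparison (all higher; of all genes 54.5%, with 28.6% and 25.9%). The comparisons with EV share the EV libraries. Summed over the 10 genes, the level was 1039.5 to 1065.1 CPM in dnCEBP, 1032.3 to 1090.9 in EV and 1045.2 to 1105.2 in dnFOS, with all groups overlapping. As shares of total counts, without TMM, the members took 0.1016% and 0.1018% in dnCEBP and 0.1062% and 0.1022% in EV. In dnFOS they took 0.1164% and 0.1096%, so these shares did not overlap between groups.

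Ratios within a library need no scaling between libraries. Per 1000 counts of the other 9 members there were 24.8 and 21.7 counts of CIITA in dnCEBP, 28.9 and 36.0 in EV, and 35.2 and 41.1 in dnFOS. The dnCEBP libraries were the lowest, while dnFOS and EV overlapped. The ratio of HLA-DMA to HLA-DMB counts was 5.14 and 4.27 in dnCEBP, 4.83 and 4.06 in EV, and 2.81 and 2.96 in dnFOS, so both dnFOS libraries held a smaller excess of the alpha chain. The ratio stayed between 2.28 and 2.73 for HLA-DRA to HLA-DRB1 and between 2.53 and 2.92 for HLA-DPA1 to HLA-DPB1. For HLA-DQB1 to HLA-DQA1, here beta to alpha, it was 7.50 and 6.74 in dnCEBP, 11.3 and 12.6 in EV, and 10.8 and 9.12 in dnFOS, with no overlap among the groups. These ratios are descriptions without a test.

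**Figure D3:**
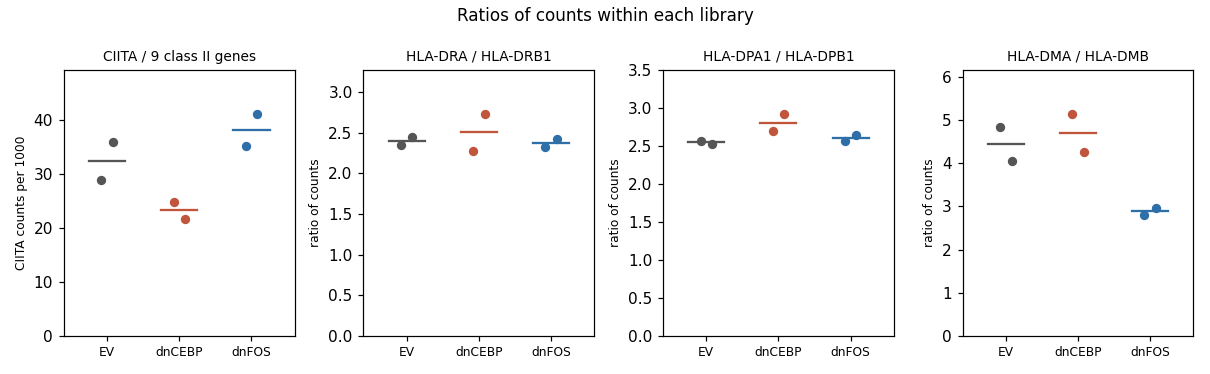
Ratios of counts within each library (points) and their group means (lines) in EV, dnCEBP and dnFOS, each axis from 0: CIITA per 1000 counts of the other 9 members, HLA-DRA to HLA-DRB1, HLA-DPA1 to HLA-DPB1 and HLA-DMA to HLA-DMB. CIITA is lowest in dnCEBP at 21.7 and 24.8, HLA-DMA to HLA-DMB is lowest in dnFOS at 2.81 and 2.96, and the DR and DP ratios stay between 2.28 and 2.92.

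The other class II genes were measured beside the members, and 5 of 11 with an ID were tested. HLA-DOA, the alpha chain of HLA-DO, which restrains HLA-DM, was at 0.962 and 1.06 CPM in dnCEBP, 1.93 and 1.83 in EV, and 2.87 and 3.38 in dnFOS. Its groups did not overlap and stood in the same order as those of CIITA. HLA-DOA was higher in dnFOS than in dnCEBP by 1.62 ± 0.37 on the log2 scale (95% interval 0.85 to 2.38; edgeR adjusted p = 0.00309), under every alternative and with each library left out, from counts of 22 to 46. Against EV its log2 fold change was -0.90 ± 0.37 in dnCEBP (edgeR adjusted p = 0.315) and 0.72 ± 0.35 in dnFOS (adjusted p = 0.176). HLA-DOB, the beta chain of HLA-DO, had -0.66 ± 0.35 in dnCEBP (edgeR adjusted p = 0.48) and -0.20 ± 0.37 in dnFOS (adjusted p = 0.773). HLA-DRB5, a further DR beta chain, had 0.14 ± 0.16 (edgeR adjusted p = 0.80) and 0.13 ± 0.17 (adjusted p = 0.682). None of the 5 was called against EV by edgeR, DESeq2 or limma-voom, and 1 had an unadjusted edgeR p under 0.05 in each comparison. The median over the 5 was -0.25 in dnCEBP and 0.13 in dnFOS on the log2 scale.

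Among the 7 factors that sit on class II promoters, none was called in dnCEBP by edgeR, DESeq2 or limma-voom, with 0 at an unadjusted edgeR p under 0.05 (median log2 fold change -0.03), and 1 was higher and 1 lower in dnFOS (median 0.09). RFXAP, a subunit of the RFX complex on the X box, was at 6.07 and 5.26 CPM in dnCEBP, 4.36 and 5.86 in EV, and 9.12 and 12.6 in dnFOS. Both dnFOS libraries stood above the other 4. RFXAP exceeded its EV level in dnFOS by 1.07 ± 0.22 on the log2 scale (95% interval 0.63 to 1.52; edgeR adjusted p = 0.00108), and this call held under every alternative and with each library left out. The other RFX subunits were not called. RFX5 had log2 fold changes of -0.03 ± 0.10 in dnCEBP (edgeR adjusted p = 0.931) and 0.17 ± 0.10 in dnFOS (adjusted p = 0.276), and RFXANK had 0.04 ± 0.12 (adjusted p = 0.945) and -0.18 ± 0.13 (adjusted p = 0.384). NFYC, a subunit of NF-Y on the Y box, fell by 0.34 on the log2 scale in dnFOS (edgeR adjusted p = 0.0274), a call lost with library totals alone (0.116) and without dnFOS replicate 2 (-0.25, adjusted p = 0.227), without EV replicate 1 (-0.32, adjusted p = 0.181) and without EV replicate 2 (-0.38, adjusted p = 0.0705).

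Upstream of CIITA, 12 of 15 genes of interferon signaling and lineage control were tested, and edgeR and DESeq2 called none against EV, with medians of 0.08 in dnCEBP and 0.00 in dnFOS. At an unadjusted edgeR p under 0.05 were 2 in dnCEBP and 1 in dnFOS, and limma-voom called 1 in dnCEBP, SPI1 (log2 fold change -0.71, adjusted p = 0.0367). By edgeR SPI1 had log2 fold changes of -0.69 ± 0.18 in dnCEBP (adjusted p = 0.0671) and -0.50 ± 0.18 in dnFOS (adjusted p = 0.0733). SPI1 was called lower in 3 of 8 alternatives in dnCEBP and in 2 of 8 in dnFOS. Over these its log2 fold change ran from -0.71 to -0.52 in dnCEBP and from -0.51 to -0.20 in dnFOS. IRF1, an interferon-induced activator of CIITA, had log2 fold changes of 0.06 ± 0.14 in dnCEBP (edgeR adjusted p = 0.911) and 0.01 ± 0.14 in dnFOS (adjusted p = 0.966). Between the peptides 2 were lower in dnFOS, with log2 fold changes of -0.52 ± 0.16 for IRF2 (edgeR adjusted p = 0.0244) and -0.25 ± 0.08 for the kinase JAK1 (adjusted p = 0.0373), both named here because they made up that count. The call of IRF2 was lost with library totals alone (-0.40, adjusted p = 0.0871), without dnCEBP replicate 1 (-0.57, adjusted p = 0.0563), without dnCEBP replicate 2 (-0.47, adjusted p = 0.113) and without dnFOS replicate 2 (-0.39, adjusted p = 0.227). That of JAK1 was lost with library totals alone (-0.13, adjusted p = 0.252), without dnCEBP replicate 1 (-0.28, adjusted p = 0.079), without dnCEBP replicate 2 (-0.22, adjusted p = 0.175), without dnFOS replicate 2 (-0.21, adjusted p = 0.191), without EV replicate 1 (-0.25, adjusted p = 0.068) and without EV replicate 2 (-0.26, adjusted p = 0.0551).

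The proteases that process antigen and the invariant chain were tested for 5 of 9 genes. None was called in dnCEBP by edgeR, DESeq2 or limma-voom, with 2 at an unadjusted edgeR p under 0.05 (median log2 fold change -0.02), and 2 were lower in dnFOS (median -0.30). CTSD, the aspartic protease cathepsin D, was at 58.9 and 46.7 CPM in dnCEBP, 80.0 and 64.2 in EV, and 52.3 and 42.8 in dnFOS, with both peptide groups below EV. It fell by 0.59 on the log2 scale in dnFOS (95% interval -0.86 to -0.33; edgeR adjusted p = 0.00299). With the trend on GC content and length removed the log2 fold change was -0.32, still called. About 52.7% of the exon bases of CTSD are shared with AC068580.4 and AC068580.3, with the use of strand not given. CTSB, the cysteine protease cathepsin B, fell by 0.36 in dnFOS (edgeR adjusted p = 0.0172; 0.0899 with library totals alone), a call lost without dnFOS replicate 2 (-0.26, adjusted p = 0.199) and without EV replicate 1 (-0.22, adjusted p = 0.365). CTSS, which makes the last cuts in the invariant chain, had 0.13 ± 0.09 in dnCEBP (edgeR adjusted p = 0.593) and 0.09 ± 0.09 in dnFOS (adjusted p = 0.528). IFI30, the lysosomal thiol reductase, was listed at 0 in all 6 libraries, and 40.2% of its exon bases are shared with AC007192.1. Of 6 tested genes of traffic and costimulation edgeR, DESeq2 and limma-voom called 0 against EV, with 0 at an unadjusted edgeR p under 0.05 and medians of -0.22 and -0.12.

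CD74 is also a surface receptor for the cytokine MIF, and its 5 ligands and partners were all tested. MIF was at 43.6 and 28.4 CPM in dnCEBP, 52.0 and 41.8 in EV, and 21.7 and 16.6 in dnFOS. Both dnFOS libraries were below the other 4, and dnCEBP overlapped EV. About 61.9% of the exon bases of MIF are shared with MIF-AS1 and AP000350.4, and the use of strand in counting was not given. MIF fell by 1.27 on the log2 scale in dnFOS (95% interval -1.74 to -0.81; edgeR adjusted p = 0.00267), a call lost without dnFOS replicate 2 (-1.11, adjusted p = 0.122). CXCR4, a chemokine receptor that pairs with CD74, was at 28.1 and 26.7 CPM in dnCEBP, 43.8 and 37.8 in EV, and 24.7 and 21.5 in dnFOS, lower in both peptide groups without overlap. CXCR4 fell by 0.57 on the log2 scale in dnCEBP (edgeR adjusted p = 0.00926) and by 0.82 in dnFOS (adjusted p = 4.35e-05). Its call in dnCEBP was lost without dnCEBP replicate 2 (-0.54, adjusted p = 0.18) and without EV replicate 1 (-0.46, adjusted p = 0.227). The list's median was -0.19 in dnCEBP and 0.18 in dnFOS, where the 2 called genes were lower and the other 3 had values above 0.

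Of 17 MHC class I genes, the counterpart that presents cytosolic peptides, 1 was called lower in dnCEBP, beside 0.448% of all tested genes, and 5 were called lower in dnFOS, beside 7.76%, with medians of -0.01 and 0.04. CALR, a chaperone of class I loading and of many other glycoproteins, fell by 0.37 on the log2 scale in dnCEBP (edgeR adjusted p = 0.0153) and by 0.27 in dnFOS (adjusted p = 0.0257). In dnFOS the heavy chain HLA-E fell by 0.33 (edgeR adjusted p = 0.00814), HLA-C by 0.30 (adjusted p = 0.0301) and the chaperone PDIA3 by 0.28 (adjusted p = 0.0215). With the trend on GC content and length removed, HLA-C, HLA-E and CALR were no longer called in dnFOS, at log2 fold changes of -0.03, -0.19 and -0.14 and adjusted p of 0.855, 0.0714 and 0.201. With library totals alone HLA-C, CALR and PDIA3 lost their calls in dnFOS, at log2 fold changes of -0.20, -0.17 and -0.18 and adjusted p of 0.154, 0.118 and 0.115. The call of CALR in dnCEBP was lost without dnCEBP replicate 1 (-0.34, adjusted p = 0.0727), without dnCEBP replicate 2 (-0.41, adjusted p = 0.0723), without EV replicate 1 (-0.36, adjusted p = 0.244) and without EV replicate 2 (-0.40, adjusted p = 0.135). In dnFOS that of CALR was lost without dnFOS replicate 1 (-0.26, adjusted p = 0.07), without dnFOS replicate 2 (-0.27, adjusted p = 0.0959), without EV replicate 1 (-0.25, adjusted p = 0.24) and without EV replicate 2 (-0.30, adjusted p = 0.0954). HLA-E lost its call without dnFOS replicate 2 (-0.31, adjusted p = 0.057) and without EV replicate 1 (-0.29, adjusted p = 0.124). HLA-C lost its call without dnFOS replicate 2 (-0.27, adjusted p = 0.152) and without EV replicate 1 (-0.20, adjusted p = 0.379). PDIA3 lost its call without dnFOS replicate 2 (-0.23, adjusted p = 0.156), without EV replicate 1 (-0.26, adjusted p = 0.204) and without EV replicate 2 (-0.32, adjusted p = 0.0661).

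**Figure D4:**
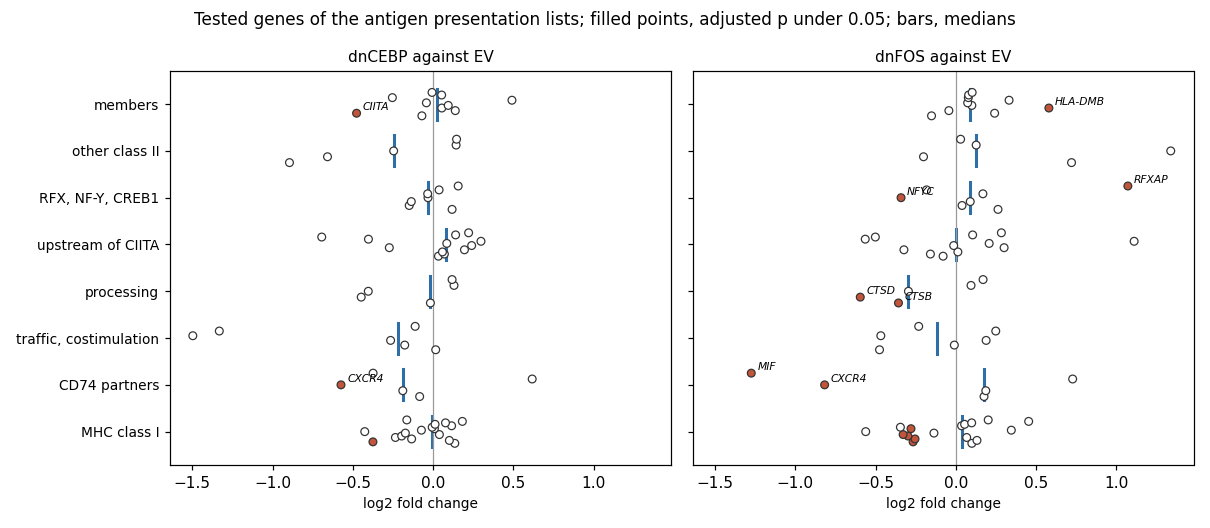
Log2 fold changes of the tested genes of each list in dnCEBP against EV and dnFOS against EV; each point is a gene, filled where the edgeR adjusted p is under 0.05, and bars are list medians. Called genes outside class I are named, among them CIITA at -0.48 and CXCR4 at -0.57 in dnCEBP and RFXAP at 1.07 and MIF at -1.27 in dnFOS, while the list medians lie between -0.30 and 0.18.

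The genes whose pattern over the 6 libraries was most like that of a member were sought among 9417 tested protein-coding genes outside the lists with a mean of at least 5 CPM. For CIITA these were MT-ND1 (Pearson's r = 0.996 of log2 CPM), KLF16 (0.988), STX2 (0.988), WWOX (0.985) and RAB31 (0.985). For CD74, the most abundant member, they were CALM3 (0.994), CAMSAP1 (0.985), CD2BP2 (0.985), SCAMP2 (0.984) and RNH1 (0.98). With 6 points that share libraries and depth, 220 genes had r over 0.9 with CIITA and 209 with CD74. The first gene for CIITA, MT-ND1, had log2 fold changes of -0.53 in dnCEBP and 0.30 in dnFOS against EV.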

How the data were processed

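Total RNA depleted of ribosomal RNA was sequenced in 6 KO52 libraries. The submitters' processing notes list Trimmomatic, HISAT2, featureCounts, Subread and hg38. Versions, annotation, strand setting and the treatment of multimapped reads were not given in the sources used here. The authors deposited raw, unnormalized counts of reads for each gene in a table per library. Groups and replicate numbers came from sample titles. Of 60612 gene IDs, 58394 matched GENCODE release 29 on GRCh38, whose coordinates and lengths are used.

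Under R 4.3.3, edgeR 4.0.16 was run on the 15395 genes that passed filterByExpr at a minimum count of 10, with TMM scaling (factors 0.956 to 1.05). The robust quasi-likelihood model held a mean for each group and used the 6 libraries together (3 residual degrees of freedom, common BCV 0.0961). Tests were two-sided, adjusted by Benjamini-Hochberg over all genes tested, and called at an adjusted p under 0.05. CPM values use the scaled library sizes. With 2 libraries a group no exact permutation test of a single gene can pass 0.05. Alternatives were a fit on unfiltered genes or on those averaging 1 CPM or more, scaling by median-of-ratios size factors or by library totals alone, only the 4 libraries compared, DESeq2 1.42.0, limma-voom (limma 3.58.1), a trend on GC content and length removed, the replicate number as a block, and each library left out. Ranges of adjusted p leave out the block. The script was tested on simulated counts.

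The members and lists were chosen with earlier results of these data known. Named are the members, list genes called against EV, and RFX5, RFXAP, RFXANK, IRF1, IFI30, CTSS, HLA-DOA, HLA-DOB and HLA-DRB5. Some genes that the rule names are not reported here. Genes of like pattern are the 5 of highest Pearson r over the 6 libraries. Promoters came from RefSeq (GRCh38.p14), where 8 of 10 members matched. HLA-DRB3 and HLA-DRB4 were not analysed here.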

Additional observations from a re-analysis of the deposited data

Results flagged for a closer look

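By the direct test between the peptides, 2 of the 10 members and 1 of the 5 other class II genes tested were called, beside 14.7% of all tested genes. CIITA was higher in dnFOS than in dnCEBP by 0.72 on the log2 scale (edgeR adjusted p = 0.000115), higher in 2 of 2 dnFOS libraries. HLA-DOA differed by 1.62 (adjusted p = 0.00309) from counts of 22 to 46, and HLA-DQB1 by 0.33 (adjusted p = 0.0445), a call lost in 4 of 8 alternatives and whichever library was left out. The effects against EV had opposite signs in all 3 genes, at -0.48 in dnCEBP and 0.24 in dnFOS for CIITA, -0.90 and 0.72 for HLA-DOA, and -0.25 and 0.08 for HLA-DQB1. The 3 genes were picked by their difference between the peptides, which favours opposite signs, so the signs are no separate result. Only CIITA in dnCEBP was called against EV. The comparisons share the EV libraries.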

How the results depend on the processing

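The member values were recomputed 450 times over members, comparisons and settings, and 400 kept their sign and side of the threshold. CIITA in dnFOS against dnCEBP was called in all. The count of called members in dnCEBP against EV, 1, fell to 0 with DESeq2 and with library totals alone. In dnFOS against EV, 1 fell to 0 with DESeq2 and rose to 2 with the GC and length trend removed. In dnFOS against dnCEBP, 2 fell to 1 without the low-count filter, with median-of-ratios size factors, with only the 4 libraries compared and with DESeq2, rose to 3 with library totals alone (HLA-DMB added, adjusted p = 0.0301), and rose to 4 with the GC and length trend removed (HLA-DRB1, HLA-DQB1, HLA-DMB and CIITA). Leaving out a library gave 0 to 1, 0 to 1 and 1 to 2 called members. There the lone library of a group is assumed to vary like the others. Library totals alone moved the median of all genes by 0.10 in dnFOS against EV and 0.12 against dnCEBP on the log2 scale. The cause of these changes was not tested.

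The labels do not say what the replicate numbers mark, and deviations from group means of same-numbered libraries correlated at 0.0174, 0.0281 and 0.0879, so the numbers were not taken as pairs. All 3 values lay above 0, so each library correlated better with its own number than with the other one, a weak hint from the data and not from the design. With the replicate number as a block, called genes rose from 165 to 488 in dnCEBP against EV, from 2309 to 3172 in dnFOS and from 2259 to 3013 in the direct comparison. CIITA in dnCEBP was called under the block (adjusted p = 0.00523), and HLA-DMB in dnFOS against dnCEBP was added (log2 difference 0.54, adjusted p = 0.0326), giving 3 members there. The 165 calls in dnCEBP against EV also rose to 255 without the low-count filter, to 297 with only the 4 libraries compared and to 279 with the GC and length trend removed.

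Of the member values, 26 changed sign, and none of them was called. With the GC and length trend removed, log2 values in dnCEBP against EV became HLA-DRA -0.0024, HLA-DRB1 0.015, CD74 0.033. With no low-count filter, log2 values in dnCEBP against EV became HLA-DRB1 0.0036. With no low-count filter, log2 values in dnFOS against dnCEBP became HLA-DPA1 -0.016. With median-of-ratios size factors, log2 values in dnFOS against dnCEBP became HLA-DPA1 -0.0052. With only the 4 libraries compared, log2 values in dnFOS against dnCEBP became HLA-DPA1 -0.012. With DESeq2, log2 values in dnFOS against dnCEBP became HLA-DPA1 -0.0046. With the GC and length trend removed, log2 values in dnFOS against dnCEBP became HLA-DPA1 -0.036, CD74 0.024. With library totals alone, log2 values in dnFOS against dnCEBP became CD74 0.039. With library totals alone, log2 values in dnFOS against EV became HLA-DMA 0.055. With the GC and length trend removed, log2 values in dnFOS against EV became HLA-DMA 0.038, CD74 0.057, RFXANK 0.062, CTSS -0.058. With 1 library left out, values that crossed 0 in dnCEBP against EV were HLA-DRA -0.066 to 0.16, HLA-DRB1 -0.069 to 0.051, HLA-DMB -0.10 to 0.21, CD74 -0.16 to 0.018, RFXAP -0.044 to 0.38, RFXANK -0.11 to 0.17, IRF1 -0.025 to 0.13, HLA-DRB5 -0.031 to 0.31. With 1 library left out, values that crossed 0 in dnFOS against dnCEBP were HLA-DRA -0.083 to 0.15, HLA-DPA1 -0.045 to 0.058. With 1 library left out, values that crossed 0 in dnFOS against EV were HLA-DMA -0.26 to 0.12, IRF1 -0.063 to 0.0797, HLA-DRB5 -0.033 to 0.29. Low counts limit precision, with counts of 43 to 109 and standard errors of 0.25 to 0.27 on the log2 scale for HLA-DQA1 among the members.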

Other observations

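Markers used to check the cells moved in places. MPO, the blast granule enzyme myeloperoxidase, fell by 1.89 on the log2 scale in dnCEBP (edgeR adjusted p = 5.03e-13) and by 0.56 in dnFOS. ANPEP, the surface aminopeptidase CD13, fell by 0.37 in dnCEBP (edgeR adjusted p = 0.0254) and by 0.58 in dnFOS. In dnFOS the phosphatase PTPRC fell by 0.33, the lysozyme gene LYZ by 0.44 and the CD3 subunit gene CD3D by 0.28. CEBPA had a log2 fold change of 0.30 there, and edgeR called all of these. Other genes share 43.4% of the exon bases of CEBPA and 34.0% of those of LYZ. The call of ANPEP in dnCEBP was lost without dnCEBP replicate 2 (-0.29, adjusted p = 0.589), without EV replicate 1 (-0.33, adjusted p = 0.274) and without EV replicate 2 (-0.42, adjusted p = 0.0934), and those in dnFOS of PTPRC without EV replicate 1 (-0.33, adjusted p = 0.0829), of CEBPA without dnFOS replicate 2 (0.30, adjusted p = 0.0595), without EV replicate 1 (0.33, adjusted p = 0.0966) and without EV replicate 2 (0.27, adjusted p = 0.14) and of CD3D without dnFOS replicate 2 (-0.19, adjusted p = 0.288), without EV replicate 1 (-0.24, adjusted p = 0.242) and without EV replicate 2 (-0.34, adjusted p = 0.0512). The call of CD3D was also lost with library totals alone (-0.18, adjusted p = 0.145) and with the GC and length trend removed (-0.13, adjusted p = 0.258). Removing that trend moved the log2 fold changes in dnFOS to 0.61 for CEBPA, -0.54 for PTPRC and -0.36 for MPO, which edgeR still called.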
